A study of Mus musculus with 6 samples.

Results

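The Fox, Sox, Tbx, Lhx and Gata genes encode DNA-binding transcription factors that direct the choice of cell type in embryos and in adult tissues. They were chosen by symbol from the protein-coding genes of chromosomes 1 to 19 in the RefSeq annotation of GRCm38.p6, the assembly on which mm10 is based. Symbols beginning with Fox and a letter and number, with Sox, Tbx or Lhx and a number, and Gata1 to Gata6 were kept. Foxo1 and Foxo3 were left out by the same rule, and members on the X chromosome fell outside it. The rule kept 82 of 20665 genes, of which 39 are Fox, 18 Sox, 12 Tbx, 8 Lhx and 5 Gata genes. No measured value was used to choose them.

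The values are lists of enriched regions (peaks) from CUT&RUN, in which an antibody bound to chromatin carries a nuclease that cuts out nearby DNA for sequencing. Chromatin came from the gastrocnemius, a calf muscle, of male C57BL/6 mice aged 4 weeks, in which both copies of Phf2 carried loxP sites (flox/flox). PHF2 is a histone demethylase linked to removal of H3K9me2, a histone mark of silent chromatin. The CKO mice (Phf2 flox/flox;Acta1 Cre+) carried a Cre recombinase driven by Acta1, the skeletal muscle actin gene, and the Ctrl mice (Phf2 flox/flox;Acta1 Cre-) did not. Acta1-driven Cre acts in muscle fibres, so the vessel, nerve, immune and connective tissue cells of the same muscle keep the floxed alleles. The 6 lists were H3K9me2 in CKO, CKO input, H3K9me2 in Ctrl, H3K4me3 in Ctrl and 2 Ctrl inputs. H3K4me3, a mark of active or poised gene starts, was titled wild type but labelled with the Ctrl genotype, and it was not measured here in CKO muscle. Each mark had 1 library per genotype, and the labels do not say whether libraries came from separate animals. Differences between CKO and Ctrl therefore had no replicate check and were not tested.

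On chromosomes 1 to 19 the lists held 12508 peaks for H3K9me2 in CKO, 10683 for CKO input, 3595 for H3K9me2 in Ctrl, 16066 for H3K4me3, and 2999 and 1277 for Ctrl inputs 1 and 2. The CKO input list was thus longer than either Ctrl input list. Each peak carries the authors' fold, the number of DNA fragments at its summit over the local background, each raised by 1. Those fragment numbers were recovered from fold and p, and their medians were 53 for H3K4me3 and between 6 and 9 for the other lists. Phf2 itself had 1 H3K4me3 peak of fold 7.81 in Ctrl and 0 peaks in the other 5 lists, which does not check the deletion. H3K4me3 lay at 3 of 6 muscle fibre markers (Mb, Ryr1 and Tnnt3, highest fold 4.99, with none at Acta1, Ckm or Myh4). It also lay at 4 of 6 satellite cell, 2 of 6 endothelial, 1 of 6 fibroadipogenic, 4 of 5 Schwann, 1 of 6 neuron and 0 of 6 immune markers. Over all coding genes the share was 65.5%, so these counts do not show which cell types carried the mark. The share of each cell type in the libraries was not measured, and a mark in few cells cannot be told apart from a weak mark in many.

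In general, H3K4me3 sits over gene starts rich in CpG (a C followed by a G), where it can be present at active genes and at poised genes that are silent. Genes for developmental transcription factors often carry broad H3K4me3 domains and are known to be held silent by Polycomb complexes in tissues that do not use them. In skeletal muscle, Sox6 represses slow-fibre genes, Tbx15 is linked to fast glycolytic fibres, and Foxk1 and Sox15 are known from satellite cells, the muscle stem cells.

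The forkhead factor Foxp1, a repressor active in heart, lung, blood and brain, shows how starts of 1 gene differed. Its 3 starts in the RefSeq promoter table (GRCm38.p6, chromosome 6, minus strand) lie far apart, and each lay under an H3K4me3 peak. Below are the 300 bases around each start (250 before it and 50 after), 5′ to 3′ on the gene's strand, with every CG in capitals. The upstream start, at chr6:99520944-99521243, held 13 CG and lay in a peak of fold 6.08 and 2462 bp. The middle start, at chr6:99266466-99266765, held 5 CG and overlapped a peak of fold 4.72 and 533 bp. The downstream start, at chr6:99028249-99028548, held 44 CG and overlapped a peak of fold 14.3 and 966 bp.
Foxp1 upstream start: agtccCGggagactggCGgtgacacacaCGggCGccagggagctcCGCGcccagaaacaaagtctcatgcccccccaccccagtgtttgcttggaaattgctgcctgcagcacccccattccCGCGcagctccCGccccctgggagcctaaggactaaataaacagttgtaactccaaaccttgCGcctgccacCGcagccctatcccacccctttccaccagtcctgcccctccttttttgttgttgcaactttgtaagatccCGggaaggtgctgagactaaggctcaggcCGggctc
Foxp1 middle start: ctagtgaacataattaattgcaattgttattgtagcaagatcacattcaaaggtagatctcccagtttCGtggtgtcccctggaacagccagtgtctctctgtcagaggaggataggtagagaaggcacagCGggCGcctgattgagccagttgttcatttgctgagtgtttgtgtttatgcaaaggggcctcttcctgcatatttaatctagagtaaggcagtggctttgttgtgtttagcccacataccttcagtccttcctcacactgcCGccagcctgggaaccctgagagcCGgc
Foxp1 downstream start: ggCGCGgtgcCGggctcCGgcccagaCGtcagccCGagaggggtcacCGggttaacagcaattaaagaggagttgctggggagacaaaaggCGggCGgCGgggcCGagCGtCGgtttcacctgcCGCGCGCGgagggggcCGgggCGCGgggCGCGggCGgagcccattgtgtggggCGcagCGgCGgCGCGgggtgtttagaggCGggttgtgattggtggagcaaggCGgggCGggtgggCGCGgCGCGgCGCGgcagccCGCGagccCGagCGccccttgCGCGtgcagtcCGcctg
The start with most CG thus had the highest fold, and the upstream start had the widest peak. By summit fragments the order differed, with 133 at the upstream start, 84 at the downstream start and 6 at the middle start. Local background was 21.0 fragments at the upstream peak and 4.95 at the downstream peak. The median over 20085 promoters of coding genes was 14 CG, with quartiles of 4 and 25.

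Promoters of 4 further genes show that CG content alone did not order the members. Foxk2, a widely expressed forkhead repressor, held 59 CG at chr11:121259737-121260036 (plus strand) under a peak of fold 10.4. Foxc1, a factor of mesoderm and vessels, held 32 CG at chr13:31806396-31806695 (plus strand) under a peak of fold 5.10. Tbx20, a heart factor, held 26 CG at chr9:24774254-24774553 (minus strand) and Sox15 held 5 CG at chr11:69654787-69655086 (plus strand), and neither had an H3K4me3 peak.
Foxk2 start: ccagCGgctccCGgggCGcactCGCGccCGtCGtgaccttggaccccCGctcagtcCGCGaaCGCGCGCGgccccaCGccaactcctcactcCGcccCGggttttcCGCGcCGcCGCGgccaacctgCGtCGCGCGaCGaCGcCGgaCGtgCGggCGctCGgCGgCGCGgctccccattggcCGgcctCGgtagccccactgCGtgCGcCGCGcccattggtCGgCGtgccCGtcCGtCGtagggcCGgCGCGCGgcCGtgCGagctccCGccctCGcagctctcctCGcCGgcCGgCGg
Foxc1 start: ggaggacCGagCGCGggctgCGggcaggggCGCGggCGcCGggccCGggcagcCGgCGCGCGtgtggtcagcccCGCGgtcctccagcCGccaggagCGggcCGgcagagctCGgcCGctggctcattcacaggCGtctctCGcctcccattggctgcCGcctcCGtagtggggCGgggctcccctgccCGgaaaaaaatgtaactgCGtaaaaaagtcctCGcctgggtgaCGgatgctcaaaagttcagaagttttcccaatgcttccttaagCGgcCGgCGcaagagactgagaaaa
Tbx20 start: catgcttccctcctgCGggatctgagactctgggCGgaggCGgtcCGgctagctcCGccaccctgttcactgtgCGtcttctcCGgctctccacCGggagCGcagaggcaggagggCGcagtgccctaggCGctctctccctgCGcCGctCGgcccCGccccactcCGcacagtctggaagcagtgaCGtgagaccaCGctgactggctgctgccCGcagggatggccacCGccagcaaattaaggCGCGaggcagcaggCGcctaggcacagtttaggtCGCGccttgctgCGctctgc
Sox15 start: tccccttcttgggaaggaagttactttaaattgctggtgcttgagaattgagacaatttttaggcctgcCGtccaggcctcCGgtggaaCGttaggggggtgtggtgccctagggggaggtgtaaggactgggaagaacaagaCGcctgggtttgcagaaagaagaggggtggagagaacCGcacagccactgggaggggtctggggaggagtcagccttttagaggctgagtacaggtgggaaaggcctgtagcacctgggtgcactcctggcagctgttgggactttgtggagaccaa
Of these 7 promoters, 5 hold GGGCGG (a GC box, on either strand), namely the upstream and downstream starts of Foxp1 and those of Foxk2, Foxc1 and Tbx20. That word occurred in 47.0% of the 20085 promoters. The E box CAGCTG, the core bound by myogenic factors, was found in Sox15 alone of the 7, against 15.6% of all promoters. A Sox-type word, ACAAAG, was in the upstream and middle starts of Foxp1 and in Sox15, against 16.6% of all. No word searched contained another, and a match is a stretch of letters, not a bound site. The table matched 55 of 82 members (67.1%), so a comparison of promoter composition over the whole set is void and was not made.

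H3K4me3 was listed at most of these genes. A peak overlapped the gene or 2 kb either side in 68 of 82 members, or 82.9% (exact 95% interval 73.0 to 90.3%, counting error only), against 65.5% of all coding genes. The members were shorter, with a median length of 8244 bp, against 17491 bp for all genes. Within length classes, 36 of 46 members under 10 kb had a peak (78.3%, interval 63.6 to 89.1%), against 45.3% of all genes under 10 kb. Of members from 10 to 100 kb, 26 of 30 had one (86.7%, interval 69.3 to 96.2%, against 74.8%), as did 6 of 6 of 100 kb or more (interval from 54.1%, against 85.1%). The background thus lay below the members' interval among short genes and within it in both longer classes. By family, H3K4me3 was listed at 33 of 39 Fox, 15 of 18 Sox, 8 of 12 Tbx, 7 of 8 Lhx and 5 of 5 Gata genes.

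**Figure D1:**
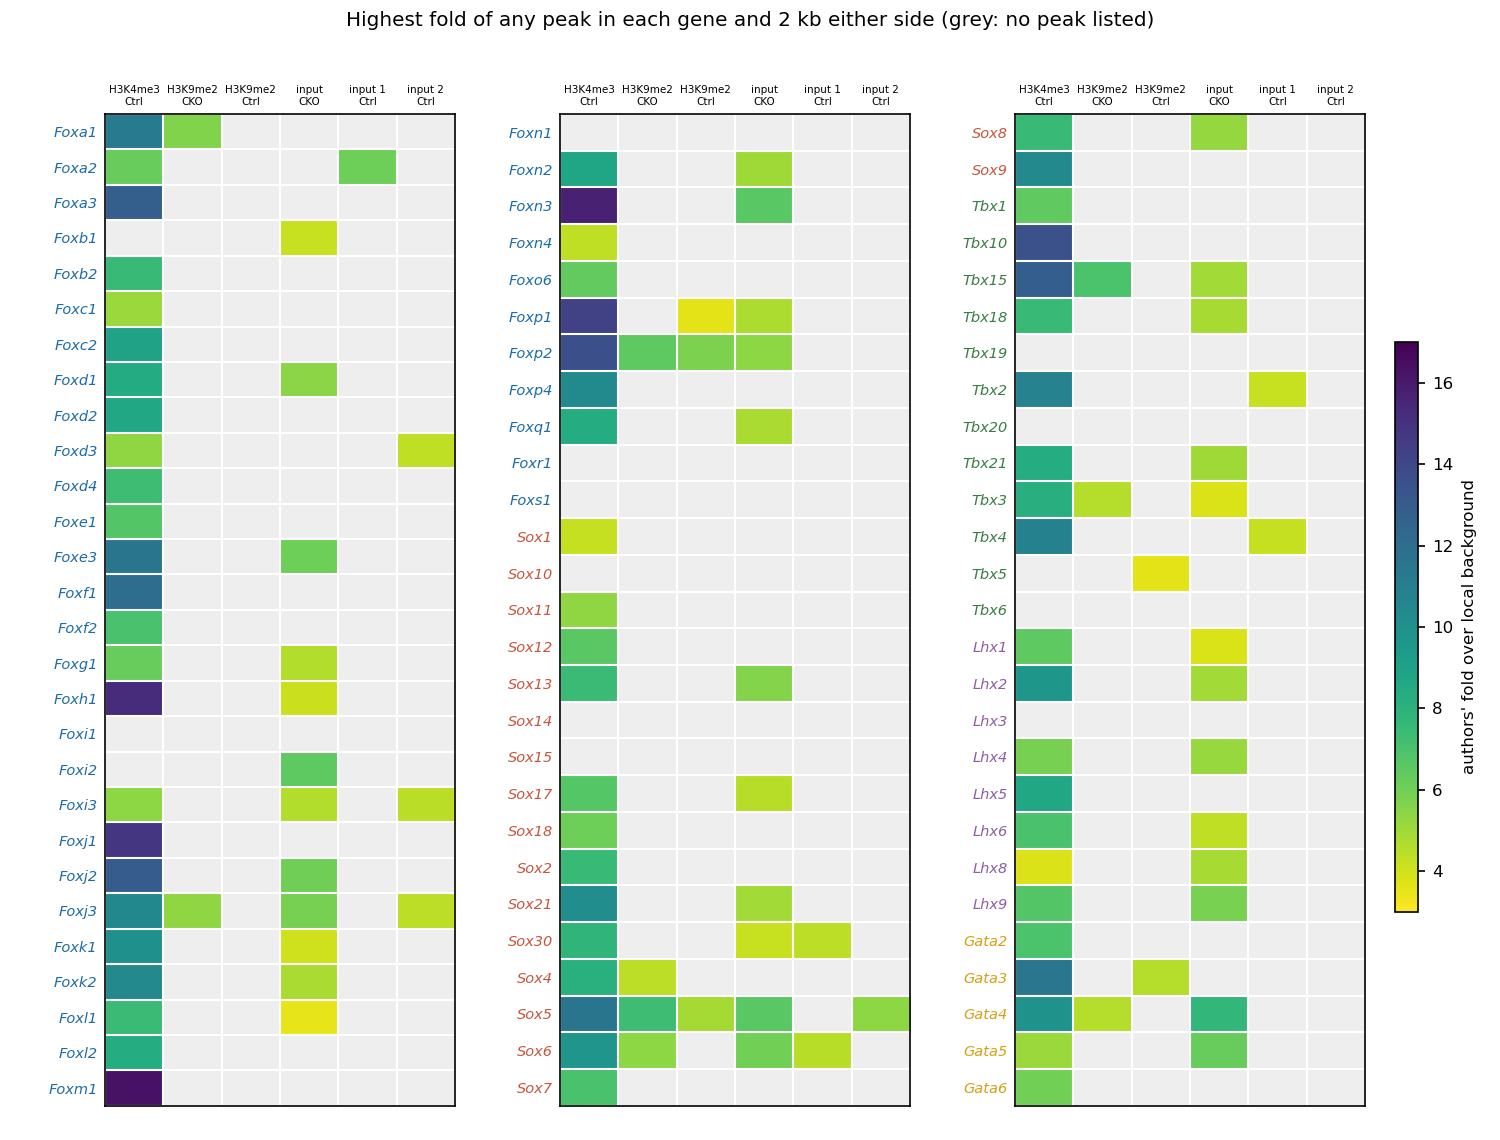
Heat map of all 82 genes (rows, in 3 columns coloured by family) against the 6 lists; colour gives the authors' fold of the highest peak in the gene and 2 kb either side, and grey means no peak listed. The H3K4me3 column is filled in 68 genes, CKO input in 36, and the remaining lists in 9 or fewer each.

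The H3K4me3 peaks at members had lower folds than those at other genes. Among genes with a peak, the highest fold had a median of 8.24 in members (quartiles 6.66 and 10.6), against 11.4 in all genes (8.73 and 14.2). A peak whose fold reached the list's median of 10.03 was present at 22 of 82 members (26.8%, against 41.5%). It was present at 14 of 39 Fox, 3 of 18 Sox, 4 of 12 Tbx, 0 of 8 Lhx and 1 of 5 Gata genes. Family medians of the highest fold were 9.56 in Tbx, 8.78 in Fox, 7.55 in Sox, 6.94 in Gata and 6.77 in Lhx genes. These are values of 1 library, with no spread between replicates.

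**Figure D2:**
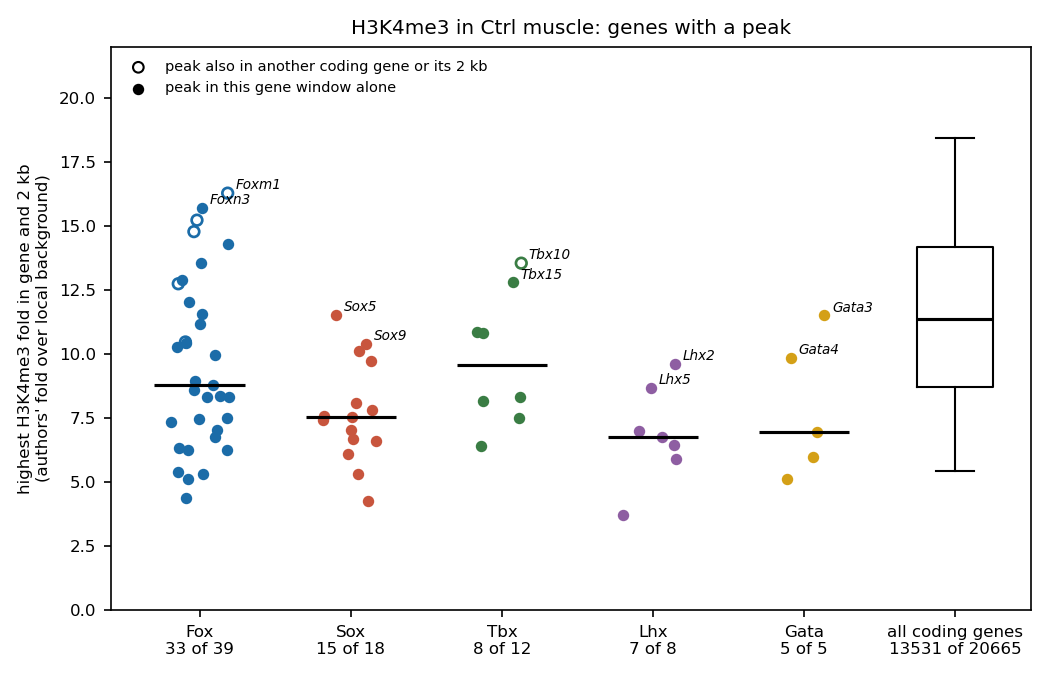
Highest H3K4me3 fold (vertical axis, authors' fold over local background) of every gene with a peak in Ctrl muscle, by family, with bars at family medians and open circles for peaks shared with another gene's window; the box for all coding genes spans the quartiles around a median of 11.4, with whiskers at percentiles 5 and 95. All 7 Lhx values lie below 10.03, and 5 of the 6 open circles are among the 10 highest member values.

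Among Fox genes the highest folds were at Foxm1 (16.3), Foxn3 (15.7), Foxh1 (15.2) and Foxj1 (14.8). Foxm1, a driver of the cell cycle, had its peak at chr6:128362305-128363191, 887 bp wide with 145 fragments at the summit. The same peak overlaps an end of Rhno1, a checkpoint gene, and whether this is its start was not determined. Foxh1, a partner of Smads in nodal signalling, shared its peak with the window of Ppp1r16a, and Foxj1, the regulator of motile cilia, with that of Rnf157. Foxn3, a forkhead repressor, had its highest peak at chr12:99563318-99563852, in no other gene's window. So 3 of these 4 values cannot be assigned to the Fox gene alone.

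Sharing with a neighbour went with the high folds. The median of the highest fold was 14.2 in the 6 members whose highest peak was shared, and 7.7 in the 62 whose highest peak was not. Besides Foxm1, Foxh1 and Foxj1 these 6 were Tbx10, Foxa3 and Foxj3. The Tbx10 peak of fold 13.6 lay 741 bp outside the gene, at an end of Nudt8. The Foxa3 peak of fold 12.7 lay 624 bp outside, at Sympk, which encodes a scaffold of RNA 3′ end processing. Foxa3 encodes a liver factor, and with Tbx10 and Foxl1, a gut mesenchyme factor, it had no peak overlapping the gene itself. Shared peaks were few all the same, at 9 of 104 (8.65%), against 31.1% of gene and peak pairs over all genes. With shared peaks left out, 63 of 82 members kept a peak (76.8%, against 47.7%).

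Sox genes had their highest folds at Sox5 (11.5), Sox9 (10.4), Sox21 (10.1) and Sox6 (9.72). Sox5 and Sox6 encode related factors of cartilage and other tissues, Sox9 the main regulator of cartilage and testis, and Sox21 a neural repressor. The Sox9 peak was 1920 bp wide with 99 fragments at the summit, and the Sox21 peak 1838 bp with 68. Sox4, with Sox11 and Sox12 a member of the SoxC group of progenitor cell factors, ranked 42 by fold among the 104 peaks (8.09). Its 141 fragments at chr13:28951868-28953381 were second only to Foxm1. Sox11 had a fold of 5.30 over 1888 bp and Sox12 a fold of 6.60 over 2389 bp, so the SoxC genes had wide peaks of modest fold.

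Among Tbx genes, Tbx10 (13.6), Tbx15 (12.8), Tbx4 (10.9) and Tbx2 (10.8) had the highest folds. The Tbx2 peak lay 1386 bp outside the gene, and with 1 kb either side its highest fold was 5.93. The highest Tbx15 peak, at chr3:99253524-99254319 with 88 fragments, lay inside the gene, 13176 bp from its nearest end. Its distance from a start is not known, as Tbx15 has none in the promoter table. Peaks at the Tbx15 end itself had lower folds of 5.47 and 7.51. Tbx4 is the hindlimb member of a pair whose forelimb member is Tbx5, and Tbx5 had no H3K4me3 peak. The only Tbx4 peak was 397 bp wide with 26 fragments. It lay 1257 bp from the Tbx4 start in the promoter table, and that start had no peak. Tbx1, known from pharyngeal arches and head muscle, had 2 narrow peaks with a highest fold of 6.40. Tbx21, the T-bet factor of T helper cells, had a fold of 8.31 with 23 fragments.

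The Lhx genes, LIM homeodomain factors known chiefly from brain, pituitary, limb and gonad, were the family with no peak at the list's median fold within 2 kb. With 5 kb either side, Lhx1, a kidney and head factor, took in a peak of fold 16.8 in place of 6.45. The highest were Lhx2 (9.61), Lhx5 (8.67), Lhx6 (7.01) and Lhx9 (6.77), and Lhx8 had the lowest highest fold of any member with a peak (3.73, on 7 fragments). The median summit over Lhx genes with a peak was 20 fragments, against 46 over all members with a peak. Lhx2 had peaks over both of its starts in the promoter table, with folds of 9.61 and 7.53. Lhx4, a pituitary factor, combined a width of 1962 bp with 24 fragments.

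All 5 Gata zinc finger genes had H3K4me3. Gata3, a factor of T cells and other lineages, had the highest fold (11.5) in a narrow peak of 548 bp with 110 fragments. Gata4, a heart and endoderm factor, followed at 9.85 with 25 fragments, in a peak 26150 bp from the nearest gene end. Gata4 has no start in the promoter table, so the distance of this peak from a start is not known. Gata2, a factor of blood progenitors and endothelium, had a fold of 6.94 at 1 of its 2 starts in the promoter table, and its other start, with 32 CG, had no peak. Gata6 (6.00) and Gata5 (5.12), also heart and gut factors, were lower, with 52 and 8 fragments at the highest peak.

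Wide peaks were frequent at these genes. A peak of 1500 bp or more lay at 17 of 82 members (20.7%), against 4.43% of all coding genes. Under 10 kb the share was 12 of 46 (26.1%, against 2.96%). The 17 were 8 of 39 Fox, 6 of 18 Sox, 2 of 12 Tbx, 1 of 8 Lhx and 0 of 5 Gata genes. The widest were at Foxc1 (2475 bp), Foxp1 (2462 bp), Sox12 (2389 bp), Foxq1 (1990 bp), Lhx4 (1962 bp) and Sox9 (1920 bp). The cutoffs of width and of summit fragments were chosen with the values in view, so these counts are a description.

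The folds of these wide peaks were modest beside their summit fragments. Of the 17 members, 14 had a wide peak and no such peak at a fold of 10.03 or more (17.1% of members, against 3.96% of all genes), the exceptions being Foxf1 (12.0), Sox9 (10.4) and Sox21 (10.1). The Foxc1 peak at chr13:31806309-31808783 had 104 fragments at its summit but a fold of 5.10, with a local background of 19.6 fragments. The wide Foxp1 peak at chr6:99520534-99522995 had 133 fragments, a fold of 6.08 and a local background of 21.0. Over the 17 wide member peaks the medians were fold 8.09, 74 fragments and local background 9.09. The 795 such peaks of the whole list had medians of fold 7.66, 92 fragments and local background 11.1. Over the 69 member peaks under 1000 bp the medians were fold 6.75, 23 fragments and local background 1.89. The 12044 such peaks of the list had fold 10.4, 38 fragments and local background 2.63. Wide member peaks were thus not lower in fold than other wide peaks, and the lower folds of members were found in the narrower peaks. By summit fragments, 35 of 82 members (42.7%) had a peak at the list's median of 53 or higher, against 42.4% of all genes. Among genes with a peak, however, those 35 were 51.5% of 68 members, against 64.8% of all genes with a peak. The highest-fold peak there had a median of 46 fragments in members (quartiles 21.5 and 74), against 68 in all genes (37 and 95). Members with a peak thus stood lower by fragments as well as by fold.

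**Figure D3:**
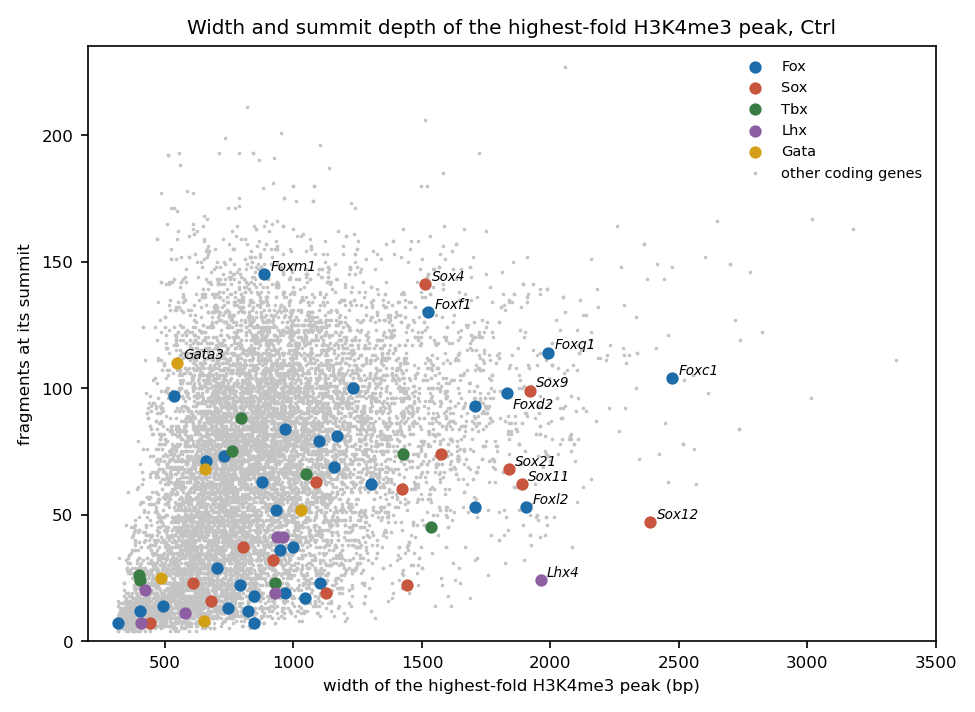
Each point is a gene's highest-fold H3K4me3 peak in Ctrl muscle, by width in bp (horizontal) and DNA fragments at the summit (vertical); coloured points are the 5 families and grey points the other coding genes. Foxc1, Sox12, Foxq1 and Lhx4 lie far to the right at 104, 47, 114 and 24 fragments. Foxm1 (887 bp, 145 fragments) and Gata3 (548 bp, 110 fragments) are deep at lesser widths.

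Of the 20 members with a known link to skeletal muscle or its stem cells, or with broad expression, 19 had H3K4me3. The share was 82.9% over all members and 65.5% over all coding genes. The 5 longest members are among the 20, and 85.1% of all genes of 100 kb or more had a peak. The 19 had a median highest fold of 9.98 and a range of 5.30 to 15.7. The exception was Sox15, which had no peak in any list. Foxk1, which has no start in the promoter table, had a fold of 9.98 at an end of the gene, and Foxk2 had 10.4 at its start. Foxj3, which acts upstream of Mef2c in muscle, had 10.5 with 100 fragments, and Foxj2 12.9. Foxn2 had 8.78 over 1706 bp. Foxp4, a relative of Foxp1, had 7.52 over 1464 bp at its start with 114 fragments, and a narrower peak of fold 10.3 on 22 fragments within the gene. Foxo6, a forkhead factor of the insulin pathway, had 4 peaks covering 3074 bp, none above 6.35. Sox8, known from satellite cells, had 7.55 over 1424 bp, and Sox13 had 7.43 over 1575 bp. Of these 19 members, 9 reached the list's median fold, and 6 had a peak of 1500 bp or more. Among all 68 members with a peak, these counts were 22 and 17. Of the 13531 coding genes with a peak, 8575 reached that fold and 916 (6.77%) had such a wide peak.

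All 7 genes linked to endothelium had H3K4me3, against 82.9% of all members and 65.5% of all coding genes. Of 6 general endothelial markers, 4 had none. The SoxF genes, which act in vessel and lymphatic growth, had folds of 7.03 at Sox7, 6.68 at Sox17 and 6.08 at Sox18. Foxf1, a factor of lung mesenchyme and endothelium, stood highest at 12.0 with 130 fragments, and Foxc2, a lymphatic factor, had 8.95. The group median was 6.94. Among other roles, H3K4me3 was listed at 13 of 17 neural genes (median fold 6.77), 6 of 6 endoderm genes (8.06), 4 of 6 heart and limb genes (9.49), 5 of 6 germ line and gonad genes (10.4) and 2 of 2 immune genes (9.91). The neural share (76.5%) and the heart and limb share (66.7%) are near the 65.5% of all coding genes, and the endoderm, germ line and immune groups hold 6 genes or fewer each. The germ line and gonad label is loose. That group holds Foxm1 and Foxh1, whose peaks were shared with a neighbour, and its median of 10.4 is the value of Sox9. Neural genes without it were Sox10, Sox14, Lhx3 and Foxb1.

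Several members lie within 200 kb of each other. On chromosome 8, Foxf1, Foxc2 and Foxl1 follow each other with gaps of 28.0 and 8.79 kb, and had folds of 12.0, 8.95 and 7.46. On chromosome 13, Foxq1, Foxf2 and Foxc1, with gaps of 64.8 and 175 kb, had folds of 8.33, 7.04 and 5.10. Foxd2 (8.60) and Foxe3 (11.6) lie 15.5 kb apart on chromosome 4, and Tbx2 (10.8) and Tbx4 (10.9) 44.4 kb apart on chromosome 11. In these clusters every gene had H3K4me3, as did 82.9% of all members and 65.5% of all coding genes. The Foxl1 peak lay 1906 bp outside the gene, and the highest Tbx2 peak 1386 bp outside. Tbx3 (8.17) and Tbx5, 112 kb apart on chromosome 5, were the neighbouring pair in which 1 gene had none.

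H3K4me3 was not listed at 14 members, namely Foxb1, Foxi1, Foxi2, Foxn1, Foxr1, Foxs1, Lhx3, Sox10, Sox14, Sox15, Tbx5, Tbx6, Tbx19 and Tbx20. They include Foxn1 (thymic epithelium), Foxi1 (inner ear and kidney), Sox10 (neural crest and Schwann cells), Lhx3 and Tbx19 (pituitary) and Tbx6 (presomitic mesoderm). Of these, 3 had a peak elsewhere, Foxb1 and Foxi2 in CKO input and Tbx5 in Ctrl H3K9me2. The other 11 had no peak in any of the 6 lists (13.4% of members, against 28.0% of all genes). An absent peak means no call at this depth, not absence of the mark.

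More than 1 H3K4me3 peak was present at members long and short. At least 2 peaks lay in 21 of 82 members (25.6%, against 13.1%), and at least 3 in 9 (11.0%, against 2.63%). By length of window covered, Foxp1 led with 5391 bp in 5 peaks, then Sox6 with 3503 bp in 5, Foxo6 with 3074 bp, Tbx2 with 2802 bp in 3, Foxp4 with 2711 bp in 3 and Foxn3 with 2516 bp in 4. In Sox6 the deepest peak had 109 fragments at a fold of 6.93, and none of the 6 Sox6 starts in the promoter table lay under a peak, the nearest being 574 bp away. Sox5, at 953863 bp the longest member, had a single peak, at chr6:144781398-144782483 with 63 fragments at 1 end of the gene. Foxp2, a forkhead gene of brain and lung linked to speech in humans, had a peak of fold 13.6 at chr6:14900731-14901898 at 1 end and a small one inside.

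H3K9me2 peaks were rare at these genes in either genotype. Peaks that overlapped no peak of the 3 inputs lay at 8 of 82 members in CKO muscle (9.76%, interval 4.31 to 18.3%), against 9.82% of all coding genes. In Ctrl muscle they lay at 4 of 82 (4.88%, interval 1.34 to 12.0%), against 3.26%. Both shares are near their backgrounds. Counting any peak, the members were 9 in CKO (11.0%, against 16.0%) and 5 in Ctrl (6.1%, against 5.38%). The CKO list is the longer, with 12508 peaks against 3595 in Ctrl. When lists were cut to equal length, 3 members kept an input-free peak in CKO and 4 in Ctrl, so the higher CKO count was not kept. By length, CKO peaks free of input lay at 2 of 46 members under 10 kb (4.35%, against 3.92% of all genes of that length), 2 of 30 from 10 to 100 kb (6.67%, against 7.91%) and 4 of 6 of 100 kb or more (66.7%, against 37.7%). In Ctrl they lay at 0 of 46 (against 0.831%), 2 of 30 (6.67%, against 2.23%) and 2 of 6 (33.3%, against 15.9%). Members of 100 kb or more thus held 4 of the 8 genes in CKO and 2 of the 4 in Ctrl.

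**Figure D4:**
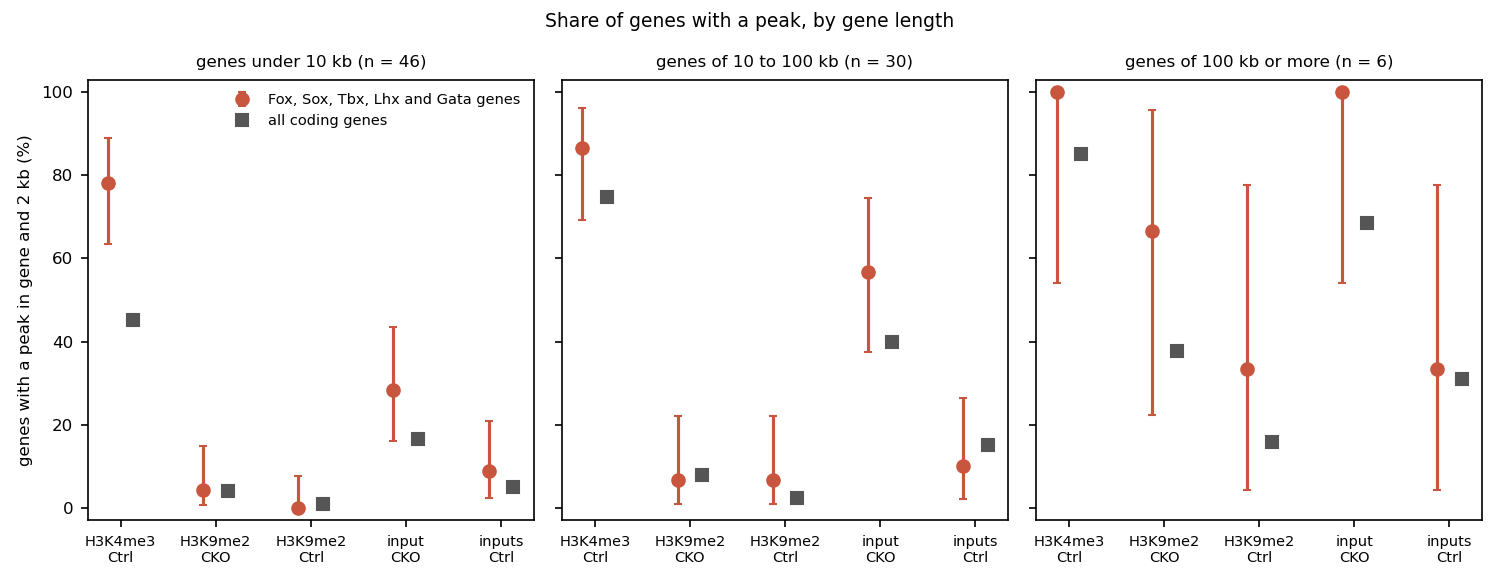
Share of genes with a peak (vertical axis, %) in 3 classes of gene length, for the Fox, Sox, Tbx, Lhx and Gata genes (circles, exact 95% intervals) and all coding genes (squares); H3K9me2 peaks are those free of input. Short members stand above all genes for H3K4me3 (78.3% against 45.3%), and the H3K9me2 shares lie within the members' intervals.

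Of the H3K9me2 peaks in CKO muscle, 10 of 22 lay in Sox5. They had folds of 5.22 to 7.37 on 8 to 14 fragments, all were free of input, and the highest was at chr6:144687523-144688083 with 11 fragments. In Ctrl muscle Sox5 had 4 peaks with folds of 4.91, 4.70, 4.03 and 3.86, of which 3 were free of input. No Sox5 peak in CKO overlapped one in Ctrl. The share of overlapping peaks over the whole lists is not given here, so this is not shown to be particular to Sox5. With lists of equal length, 6 Sox5 peaks remained in CKO.

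The H3K9me2 counts were also set against gene length. Sox5, Foxp1, Sox6, Foxp2 and Foxn3 make up 3.06 of the 4.76 Mb of member windows. Together these 5 held 14 input-free peaks in CKO, or 4.58 per Mb, and 4 in Ctrl, or 1.31 per Mb. All 533 coding genes of 300 kb or more had 4.25 per Mb in CKO and 1.09 per Mb in Ctrl. The other 77 members held 5 peaks in CKO (2.93 per Mb) and 2 in Ctrl (1.17 per Mb), against 2.89 and 0.738 per Mb over all genes. Sox5 alone held 10 of the 14 CKO peaks, at 10.4 per Mb, and the other 4 long members held 4, at 1.91 per Mb, with 0 in Foxp1 and Foxn3. In Ctrl the densities were 3.13 per Mb in Sox5 and 0.477 per Mb in the other 4. In both genotypes Sox5 thus stood above the density of all long genes, and the other 4 together below it.

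**Figure D5:**
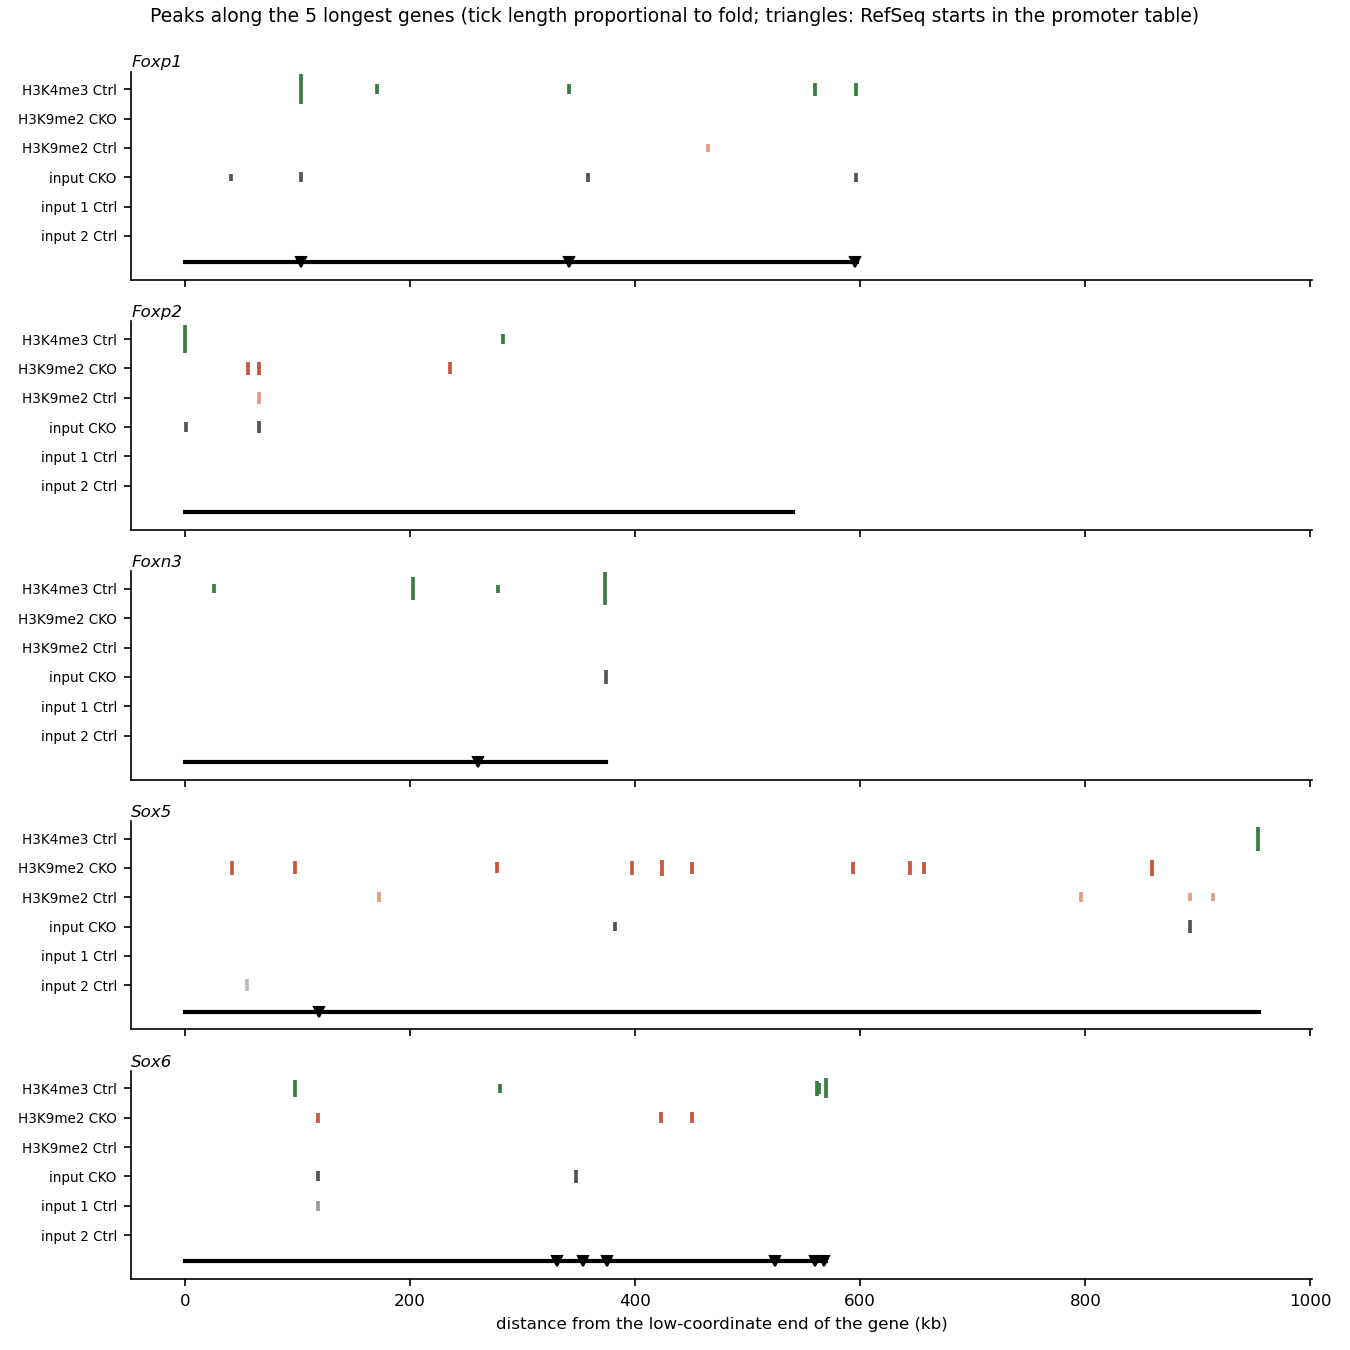
Peaks along Foxp1, Foxp2, Foxn3, Sox5 and Sox6, by distance in kb from the low-coordinate end of each gene; tick length is proportional to fold, the black line is the gene and triangles are starts in the promoter table. Sox5 has 10 CKO and 4 Ctrl H3K9me2 ticks inside the gene and its H3K4me3 tick at 1 end, and Foxn3 has H3K4me3 but no H3K9me2.

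Outside Sox5, input-free H3K9me2 in CKO muscle lay at Tbx15, Foxp2, Foxa1, Sox6, Tbx3, Gata4 and Sox4. Tbx15 had a peak of fold 6.95 on 10 fragments at chr3:99290245-99290652, inside the gene and away from its H3K4me3. Foxp2 had input-free peaks of fold 6.48 and 5.83, and Sox6 of 5.37 and 5.11. The Foxa1 peak of fold 5.68 lay 1522 bp outside the gene and also in the window of Ttc6. Gata4 had a peak of fold 4.53 on 6 fragments.

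Sox4 and Tbx3, a limb and heart factor, had their CKO H3K9me2 peaks inside the H3K4me3 peaks of Ctrl muscle. The Sox4 peak had fold 4.40 and the Tbx3 peak 4.56, each on 7 fragments. Another, at Foxj3 (fold 5.32, 8 fragments), also overlapped H3K4me3 but overlapped CKO input as well. That made 3 of 22 CKO peaks (13.6%), against 14.2% of the whole CKO list. In Ctrl it was 0 of 8, against 13.3% of the Ctrl list.

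In Ctrl muscle, input-free H3K9me2 outside Sox5 lay at Gata3, Tbx5 and Foxp1. The Gata3 peak of fold 4.55 on 6 fragments lay 1339 bp outside the gene. The Tbx5 and Foxp1 peaks both had fold 3.59 on 4 fragments. Foxp2 was the 1 member where peaks of both genotypes overlapped, with folds of 6.38 in CKO and 5.75 in Ctrl. Both of these, the CKO one at chr6:14966390-14966916, also overlapped a CKO input peak. Input-free H3K9me2 was therefore listed in both genotypes at Sox5 alone among the 82 members. Sox5 is also the longest member, and the share of all coding genes listed in both genotypes is not given here.

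Input peaks overlapped many of the same genes. CKO input had a peak at 36 of 82 members (43.9%, interval 33.0 to 55.3%), against 34.8% of all genes. Under 10 kb it had one at 13 of 46 (28.3%, interval 16.0 to 43.5%, against 16.5%). It had one at 17 of 30 members from 10 to 100 kb (56.7%, interval 37.4 to 74.5%, against 39.8%) and at 6 of 6 longer ones (interval from 54.1%, against 68.5%). Each of these backgrounds lay within the members' interval. By family, CKO input had a peak at 17 of 39 Fox, 7 of 18 Sox, 4 of 12 Tbx, 6 of 8 Lhx and 2 of 5 Gata genes. Ctrl input 1 had a peak at 5 members (6.1%, against 10.1%) and Ctrl input 2 at 4 (4.88%, against 4.56%). Either Ctrl input had one at 9 members (11.0%, against 13.3%), namely 4 of 46 under 10 kb (8.7%, against 4.96%), 3 of 30 from 10 to 100 kb (against 15.1%) and 2 of 6 longer ones (33.3%, against 31.0%). CKO input was thus listed at more members than Ctrl input, and its list was also the longest of the inputs.

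The highest input folds were at Gata4 (7.74 in CKO, 11 fragments), Foxn3 and Sox5 (6.57 each in CKO), Foxi2 (6.49 in CKO) and Gata5 (6.23 in CKO). Below these came Foxe3 (6.08 in CKO), Foxa2 (6.07 in Ctrl input 1), Foxj2 (6.03), Sox6 (5.98), Foxj3 (5.89), Lhx9 (5.84) and Sox13 (5.59), all CKO where not stated. Foxe3 encodes a lens factor and Foxa2 a factor of liver and floor plate. The Foxi2 peak stood at a gene with no H3K4me3. Over all members, 25 of 45 CKO input peaks overlapped H3K4me3 of Ctrl muscle (55.6%, against 50.7% of that input list). The same region was listed in both genotypes at Foxi3 (4.60 in CKO, 4.47 in Ctrl input 2) and Sox6 (4.79 in CKO, 4.48 in Ctrl input 1). Of the 104 H3K4me3 peaks at members, 29 overlapped an input peak, against 38.0% of the whole list. The part of input in the H3K4me3 values was not tested.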

How the data were processed

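Chromatin of gastrocnemius muscle was profiled with a CUT&RUN kit and sequenced after NEBNext Ultra II library preparation, per the labels' protocols. The submitters' processing notes name mm10, Bowtie2 (an aligner) and MACS2 (a peak caller). Versions, settings and any use of input as a control were not given in the sources. The deposited peak lists, 1 per library, hold for each peak a score, the authors' fold over local background (a ratio), −log10 p and −log10 q, and the offset of the summit. The lowest −log10 q was 1.30. Depth in reads is unknown. Whole fragments at each summit were recovered from fold and p for 98.98 to 99.97% of peaks (tolerance 0.1% of −log10 p).

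A gene was called when a peak overlapped it or 2 kb either side by 1 bp or more. Genes came from RefSeq GRCm38.p6. Shares carry exact binomial intervals, which cover counting error only. The overlap code was tested on simulated data. Calculations used Python 3.11.15, pandas 2.3.3, numpy 2.4.6 and scipy 1.17.1. With 1 library per mark and genotype, no test between genotypes was made. The members, role groups and other lists were chosen with earlier results of these data known. Genes named in full were, in each family, the 4 highest H3K4me3 folds, the 6 members with most sequence covered, every member with input-free H3K9me2, the 12 highest input folds, and all muscle-linked and endothelial members. Others were named after their values were seen. A comparison of promoter composition over all members was planned and not made. The alternatives tried were a stricter fold or q, other windows, a larger overlap, unshared peaks, equal list lengths and leaving out each Ctrl input.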

Additional observations from a re-analysis of the deposited data

How the results depend on the processing

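The count of 68 members with H3K4me3 became 22 at the list's median fold or higher. Under 2 alternatives chosen after seeing the data, it was 35 at the median of summit fragments or higher and 17 for peaks of 1500 bp or wider. The 6 other settings gave 63 to 69. The CKO count of 8 with input-free H3K9me2 became 4 at the median fold, 4 at q of 1e-05 or less, 3 near gene ends only and 3 with lists of equal length. The Ctrl count of 4 became 1, 0 and 1 under the first 3 of these. Members with CKO input fell to 15 at the median fold and 6 at that q, against 36. Members with either Ctrl input were 2 and 1 under those settings, against 9, and 4 or 5 with 1 Ctrl input left out. Leaving out either Ctrl input kept 8 CKO and 4 Ctrl members with input-free H3K9me2. The highest H3K4me3 fold of a member was kept in 65 of 67 with 1 kb, 65 of 68 with 5 kb and 60 of 63 near gene ends. It moved by over 1.5 times at Lhx1 (16.8 with 5 kb), at Tbx2 (5.93 with 1 kb), and near gene ends at Foxp1 (6.08) and Tbx15 (7.51). The cause of these shifts was not tested. No paired analysis was possible because each mark and genotype had 1 library and no result comes from a test between groups. H3K9me2 calls rest on 4 to 14 fragments each, so a gene without one may carry the mark below this depth.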

Other observations

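H3K4me3 was also listed at most genes for partners of these factors. Of 21 genes for cofactors, such as the Tle corepressors and the LIM-domain binding proteins, 20 had H3K4me3 (95.2%, against 65.5% of all coding genes), with a median highest fold of 9.04. A peak of 1500 bp or wider lay at 5 of the 21 (23.8%), against 20.7% of the 82 members and 4.43% of all coding genes. Lmo3, a LIM-only gene of the nervous system, was the 1 without H3K4me3. Of 38 developmental regulators of other families (Pax, Dlx, Irx, Msx and Nkx), 32 had H3K4me3 (84.2%), with a median of 6.87 and a highest fold of 11.8, and 5 had a peak of 1500 bp or wider (13.2%). Of 22 widely used transcription factors, 22 had H3K4me3, with a median of 10.6, and 4 had such a wide peak (18.2%). The median of the developmental regulators lay between those of the Lhx (6.77) and Gata (6.94) genes. Input-free H3K9me2 lay at 5 cofactors in CKO and 1 in Ctrl, 2 of the developmental regulators in CKO and 0 in Ctrl, and 2 widely used factors in CKO and 0 in Ctrl. Over all coding genes these shares were 9.82% in CKO and 3.26% in Ctrl; no test of these lists was made.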
